A study of Homo sapiens with 4 samples.

Results

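Long noncoding RNAs of 2 kinds are described here, 42 genes among the 25798 gene IDs of the deposited table. The first kind is 31 host genes of small nucleolar RNAs (snoRNAs): 27 with a symbol made of SNHG and a number, plus GAS5, ZFAS1, DANCR and EPB41L4A-AS1. The second kind is 11 other long noncoding RNAs, several of them known to stay in the nucleus: MALAT1, NEAT1, NORAD, OIP5-AS1, TUG1, PVT1, HCG18, MIR22HG, CYTOR, H19 and KCNQ1OT1. The genes were picked by symbol from those in the deposited table, with earlier results of these data known. The libraries came from SW1990, an established human pancreatic cancer line labelled wild type, with 2 libraries after 48 h in 100 nM erianin and 2 after DMSO, in which the compound was dissolved. Erianin, a bibenzyl from Dendrobium orchids, acts on microtubules among other targets. All libraries share the line and the medium, and nothing in the labels says that replicates were separate cultures, so a p-value here measures only the spread between these libraries.

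Most snoRNAs of human cells are cut out of introns. Those of the C/D box class (SNORD) guide ribose methylation of ribosomal RNA and those of the H/ACA class (SNORA) guide the change of uridine to pseudouridine. In a noncoding host gene the introns carry the snoRNAs, and the spliced exons form a transcript that is often short-lived, in several hosts because ribosomes engage it and nonsense-mediated decay then destroys it. MALAT1 collects in nuclear speckles, NEAT1 is the scaffold of paraspeckles, and NORAD is a cytoplasmic RNA that binds Pumilio proteins, which repress the mRNAs they bind.

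Deposited counts summed to 63336545 and 59923935 in erianin libraries and to 63254725 and 60798427 in DMSO libraries. The ductal epithelial markers were all present. The 7 genes summed to 13059 and 14955 CPM (counts scaled to library size) in erianin libraries and 12168 and 12471 CPM in DMSO libraries. These sums came nearly whole from the keratin genes KRT8, KRT18, KRT7 and KRT19, and CDH1 was far lower. EPCAM had only 6.05 and 3.73 CPM in erianin libraries and 4.94 and 2.39 CPM in DMSO libraries. MUC1 was as low, with 3.19 and 5.15 CPM in erianin libraries and 4.09 and 2.80 CPM in DMSO libraries. Fibroblast markers were in the table for 6 of 6 genes and summed to 11.2 and 14.3 CPM in erianin libraries and 38.5 and 13.4 CPM in DMSO libraries, the highest sum being in DMSO replicate 1. In that library DCN and COL3A1, which encode a proteoglycan and a collagen of connective tissue, had 398 and 583 counts, and the part of this in the results below was not tested. In bulk RNA, more cells of a type and more RNA per cell cannot be told apart. Blood markers were in the table for 3 of 4 genes, with sums of 204 and 244 CPM in erianin libraries and 193 and 198 CPM in DMSO libraries that came nearly whole from CD68, and endothelial markers for 2 of 3, with 0.628 and 1.3 CPM in erianin libraries and 1.06 and 0.801 CPM in DMSO libraries. Erianin replicate 2 stood apart from the other libraries. Its TMM normalisation factor was 0.928, against 1.01 in erianin replicate 1 and 1.04 and 1.03 in the DMSO libraries.

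The 42 genes took 0.172% and 0.176% of all counts in erianin libraries and 0.185% and 0.18% in DMSO libraries. At a Benjamini-Hochberg adjusted p of 0.05 in edgeR's quasi-likelihood test, 0 of the 39 genes with enough counts passed, beside 7 of 17090 genes (0.041%) in the whole table. At an unadjusted p of 0.05, 1 of the 39 (2.56%) passed, NORAD, which was lower after erianin, beside 1385 genes (8.1%) in the whole table, of which 1007 (5.89% of the genes tested) were lower. Without erianin replicate 1, where erianin replicate 2 stands alone and is assumed to vary like the DMSO libraries, 3166 of 18116 genes (17.5%) and 6 of 38 members (15.8%) passed. In the test of all 4 libraries 37 of the 39 log2 fold changes were within a factor of 1.5, as were all 34 of the members with a mean of at least 1 CPM. In the whole table this held for 14432 of 17090 genes, and for 12073 of the 12905 with a mean of at least 1 CPM. A gene that missed the threshold is not thereby shown to be equal in both groups.

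The snoRNA hosts held most of the counts. They made up 88.0% and 90.8% of the members' counts in erianin libraries and 86.5% and 87.5% in DMSO libraries. SNHG29 and ZFAS1 by themselves made up 48.8% and 54% in erianin libraries and 48.2% and 48.1% in DMSO libraries. By position alone, with strand and introns not checked, RefSeq places at least 1 snoRNA inside 27 of the 31 host genes. The exceptions are SNHG10, SNHG20, SNHG21 and SNHG22. SNHG14, the long transcript of the imprinted region on chromosome 15, holds 84 and GAS5 holds 11, of which 10 are of the C/D box class. The snoRNAs themselves were barely counted: of 246 snoRNA genes in the table, 149 had at most 1 count in every library and the highest count of any was 86. The values below are therefore levels of the host transcripts.

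The first bases of several hosts help to place them. Transcripts of the translation machinery typically begin with a C followed by a run of pyrimidines, the terminal oligopyrimidine (TOP) motif, through which their translation depends on mTOR. A C at the RefSeq start followed by pyrimidines to a run of at least 5 was found in 7 of the 27 hosts with a RefSeq promoter sequence (25.9%) and in 0 of 8 other members. It was present in 48 of 85 ribosomal protein genes (56.5%) and in 4.07% of 35116 promoters in the table. The match is a description of the letters at the annotated start, and many ribosomal protein genes had no match either. A host without the run is therefore not shown to lack the motif. Annotated starts also differ: GENCODE release 29 begins GAS5, on the minus strand, at 173868882, and its RefSeq window is 173869031 to 173869060. It begins SNHG29 at 16438822. The windows below, from RefSeq on GRCh38.p14, run from 15 bases before the start to 15 bases from it, with the pyrimidine run in capitals. They set 5 hosts with the run beside SNHG29, the most abundant host, which has no such run at its RefSeq start.
ZFAS1, chromosome 20, 49278627 to 49278656, plus strand: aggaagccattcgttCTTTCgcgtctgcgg
SNHG32, chromosome 6, 31834901 to 31834930, plus strand: ctcgccattttagttCTTTTTgcgaagtgg
SNHG5, chromosome 6, 85678719 to 85678748, minus strand: gctgcgcacttcggtCTTTTacgtcggcct
SNHG12, chromosome 1, 28581859 to 28581888, minus strand: tcgcggcttcagcgcCCTTTCTCCCCgccg
SNHG4, chromosome 5, 139274086 to 139274115, plus strand: ctcggctcccggctgCCCTTTCCCCTCCgg
SNHG29, chromosome 17, 16438972 to 16439001, plus strand: cccctccttttgtgaggattgggatattcc

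Levels between genes were compared in FPKM, which is per length, summed over the rows of each gene. SNHG29, which carries 3 C/D box snoRNAs, was the highest, with 365 and 379 FPKM in erianin libraries and 380 and 373 FPKM in DMSO libraries. ZFAS1, which also carries 3 and lies antisense to the start of ZNFX1, had 341 and 325 FPKM in erianin libraries and 342 and 269.65 FPKM in DMSO libraries. Over the 4 libraries the range of SNHG29 lay above that of ZFAS1, and ZFAS1 above GAS5.

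GAS5, a growth arrest transcript, had 108 and 103 FPKM in erianin libraries and 117 and 109 FPKM in DMSO libraries. SNHG6 had 94.1 and 95.5 FPKM in erianin libraries and 103 and 102 FPKM in DMSO libraries. SNHG7 had 69.6 and 79.5 FPKM in erianin libraries and 70.9 and 73.0 FPKM in DMSO libraries. The ranges of GAS5, SNHG6 and SNHG7 followed each other without overlap, while SNHG7 overlapped with SNHG32, and SNHG32 with DANCR.

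Next came CYTOR, the highest of the RNAs that are not snoRNA hosts, with 31.9 and 37.7 FPKM in erianin libraries and 37.0 and 32.2 FPKM in DMSO libraries. From SNHG8, rank 9, down to SNHG4, rank 21, every gene in the order overlapped with the next. MALAT1, among the most abundant long noncoding RNAs of many tissues, had 1.26 and 1.01 FPKM in erianin libraries and 1.05 and 0.97 FPKM in DMSO libraries, rank 33 of 42. The longest forms of MALAT1 and NEAT1 end without a poly(A) tail, and whether the libraries were selected for poly(A) is not given in the sources used here.

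**Figure D1:**
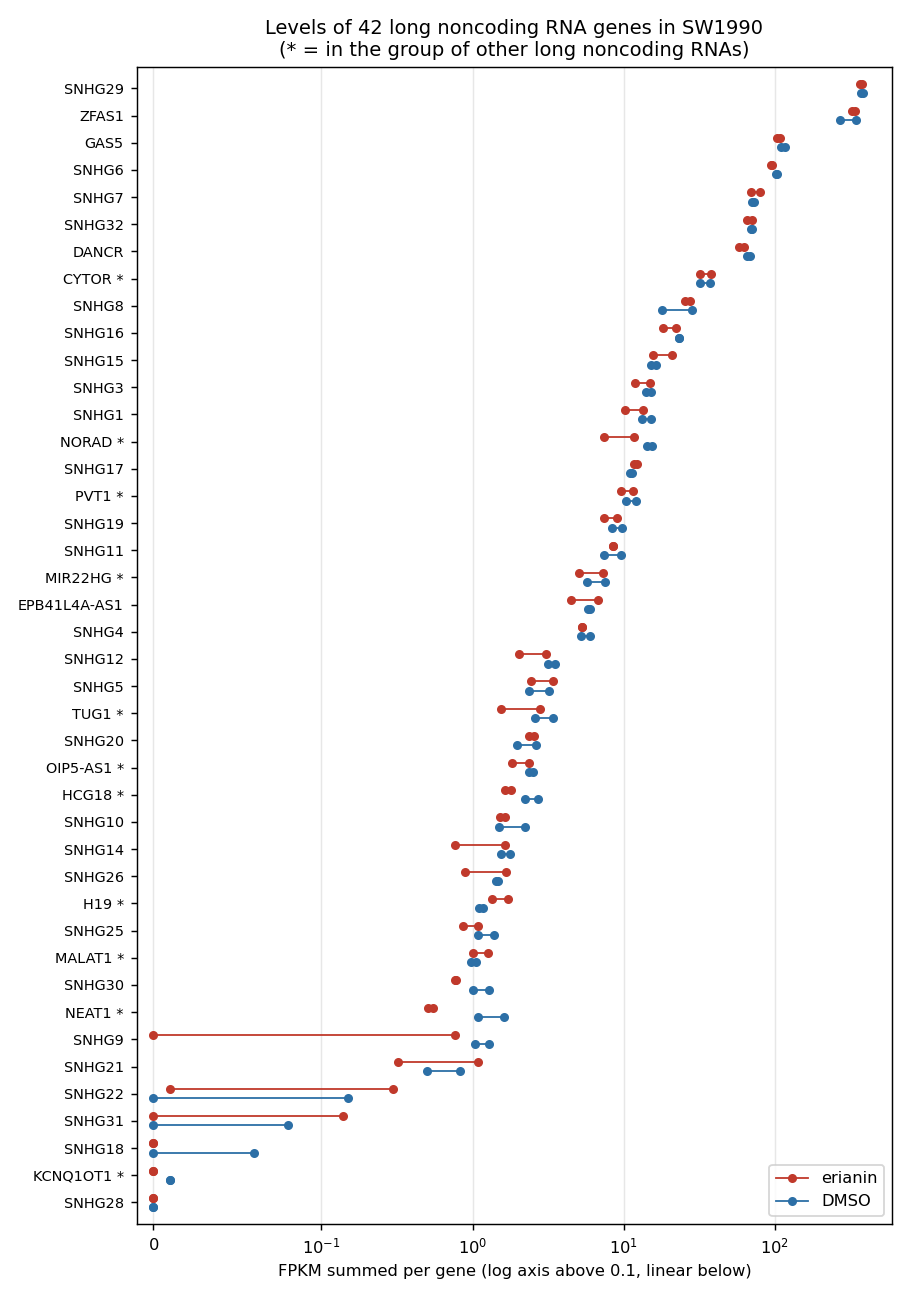
FPKM summed per gene in each library for the 42 genes in order of their mean over 4 libraries, erianin in red above DMSO in blue, with a line joining the 2 libraries of a group; the axis is logarithmic above 0.1. SNHG29 and ZFAS1 stand above 250 FPKM, and MALAT1 lies near 1 FPKM.

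Among the 28 hosts tested, 13 had a log2 fold change above 0 and 15 below. Their median log2 fold change was -0.04, beside -0.01 over all genes tested, and was -0.03 for erianin replicate 1 and -0.01 for erianin replicate 2 when each was set against the mean of the DMSO libraries. With the GC and length offset described below the median was 0.01. Both erianin libraries were above both DMSO libraries in 3 hosts (10.7%, beside 21.7% of all genes) and below both in 7 (25.0%, beside 24.4% of all genes).

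SNHG29 had 431 and 514 CPM in erianin libraries and 444 and 443 CPM in DMSO libraries. The groups overlapped, and erianin replicate 2 was the highest library. The log2 fold change was 0.09 ± 0.11 (SE; edgeR, adjusted p = 0.763).

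ZFAS1 had 405 and 513 CPM in erianin libraries and 409 and 402 CPM in DMSO libraries. Erianin replicate 1 lay between the DMSO libraries and erianin replicate 2 above them. The log2 fold change was 0.18 ± 0.12 (SE; edgeR, adjusted p = 0.622). Without erianin replicate 1 it was 0.33 (edgeR, adjusted p = 0.00818), and without erianin replicate 2 it was -0.001. SNHG29 and SNHG7 had the same dependence, with 0.20 and 0.27 without erianin replicate 1 and -0.04 and -0.01 without erianin replicate 2. SNHG7, known from several cancers, had 90.1 and 110 CPM in erianin libraries and 89.6 and 92.2 CPM in DMSO libraries, a log2 fold change of 0.14 ± 0.12 (SE; edgeR, adjusted p = 0.673).

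GAS5 had 90.8 and 94.0 CPM in erianin libraries and 94.8 and 100.5 CPM in DMSO libraries. The erianin values were both below the DMSO values, by a log2 fold change of -0.08 ± 0.10 (SE; edgeR, adjusted p = 0.769). The GAS5 counts are spread over 78 rows, and the row with the most counts was not the same in every library.

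SNHG32, host of SNORD48 and SNORD52 and listed as protein-coding in GENCODE release 29, had 71.6 and 74.8 CPM in erianin libraries and 69.7 and 70.3 CPM in DMSO libraries. The erianin values were both above the DMSO values, by a log2 fold change of 0.06 ± 0.10 (SE; edgeR, adjusted p = 0.831). With library totals in place of TMM factors its value was -0.04.

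DANCR, host of SNORA26, had 81.7 and 89.5 CPM in erianin libraries and 84.8 and 83.6 CPM in DMSO libraries, which overlapped (log2 fold change 0.02 ± 0.10 SE; edgeR, adjusted p = 0.948). SNHG6, host of SNORD87, had 65.2 and 70.4 CPM in erianin libraries and 70.6 and 70.2 CPM in DMSO libraries (log2 fold change -0.06 ± 0.10 SE; edgeR, adjusted p = 0.867). Neither gene separated the groups.

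SNHG8, host of SNORA24, had 21.9 and 23.0 CPM in erianin libraries and 24.7 and 24.4 CPM in DMSO libraries, all erianin values below all DMSO values (log2 fold change -0.13 ± 0.14 SE; edgeR, adjusted p = 0.741). Its summed FPKM went the other way, with 25.4 and 27.6 in erianin libraries and 28.4 and 17.9 in DMSO libraries and a difference of 0.22 on the log2(FPKM + 1) scale. SNHG16, host of 3 C/D box snoRNAs, had 64.7 and 57.9 CPM in erianin libraries and 66.1 and 66.8 CPM in DMSO libraries, again without overlap (log2 fold change -0.12 ± 0.11 SE; edgeR, adjusted p = 0.708).

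Examples from the other hosts were chosen after their values had been seen. EPB41L4A-AS1, host of SNORA13, had 16.2 and 16.9 CPM in erianin libraries and 13.6 and 14.8 CPM in DMSO libraries, and SNHG17, host of SNORA71 copies, had 17.5 and 18.8 CPM in erianin libraries and 15.7 and 16.3 CPM in DMSO libraries. Both were higher in both erianin libraries, by log2 fold changes of 0.22 ± 0.15 and 0.18 ± 0.15 (SE; edgeR, adjusted p = 0.618 and 0.658). SNHG14 had 11.7 and 7.99 CPM in erianin libraries and 12.8 and 12.8 CPM in DMSO libraries, lower in both erianin libraries by a log2 fold change of -0.38 ± 0.21 (SE; edgeR, adjusted p = 0.579). Its value was -0.69 without erianin replicate 1 (edgeR, adjusted p = 0.0202) and -0.12 without erianin replicate 2.

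The rest of the 24 hosts with a mean of at least 1 CPM lay between -0.46, for SNHG30, and 0.25, for SNHG15, on the log2 scale. SNHG9, SNHG21, SNHG25 and SNHG31 were tested with means under 1 CPM. SNHG9, host of SNORA78, had 0 and 20 counts in erianin libraries and 43 and 30 counts in DMSO libraries, and its fitted log2 fold change of -1.67 ± 1.30 (SE) rests on the library at 0. SNHG18, SNHG22 and SNHG28 had too few counts to be tested, with at most 11 counts in any library.

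**Figure D2:**
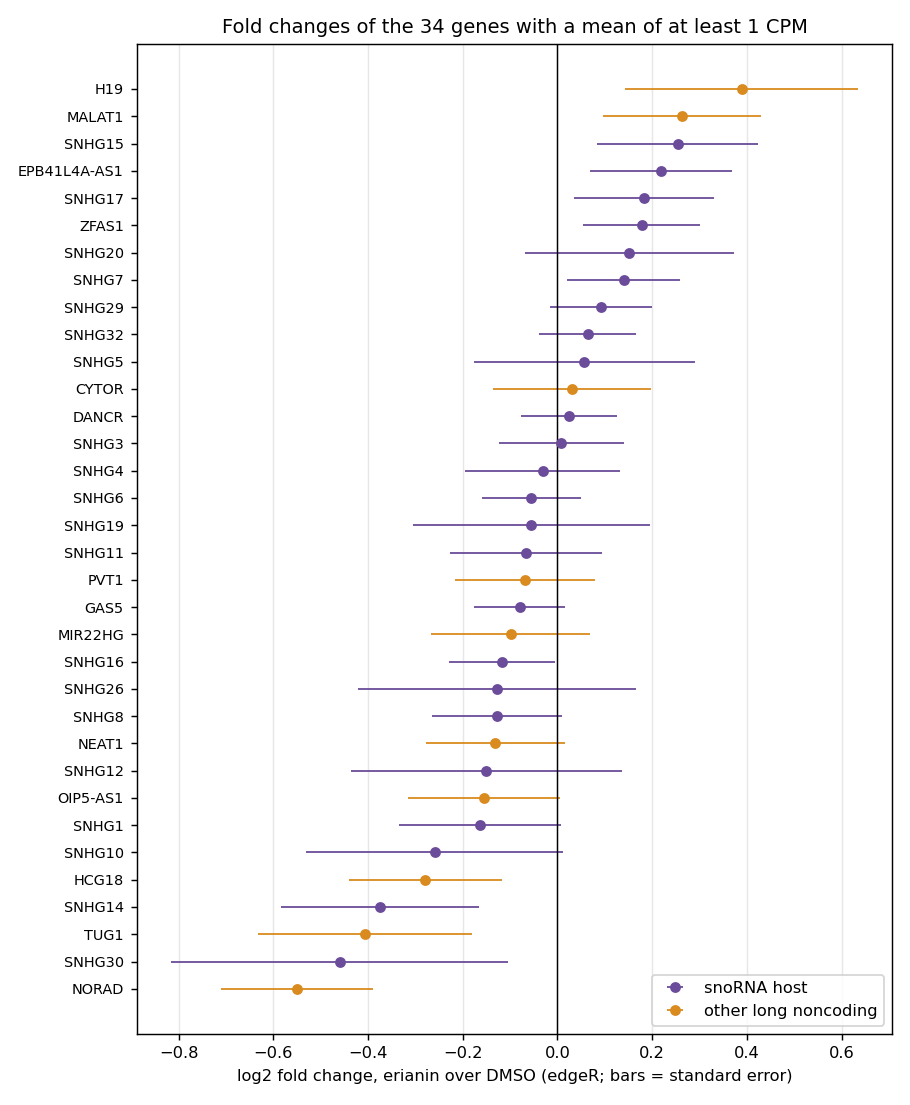
edgeR log2 fold change of erianin over DMSO, with its standard error, for the 34 genes with a mean of at least 1 CPM, hosts in purple and other long noncoding RNAs in orange. Values run from -0.55 for NORAD to 0.39 for H19, and most bars cross 0.

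Of the 11 other long noncoding RNAs, 3 had a log2 fold change above 0 and 8 below, with a median of -0.13. The median was -0.11 for erianin replicate 1 and -0.26 for erianin replicate 2 when each was set against the mean of the DMSO libraries. Both erianin libraries were above both DMSO libraries in 2 of them (18.2%) and below both in 4 (36.4%), beside 21.7% and 24.4% of all genes.

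NORAD is a transcript of 5339 bases from a gene without introns on chromosome 20, 36045622 to 36050960, minus strand, GRCh38. It had 71.9 and 51.1 CPM in erianin libraries and 93.4 and 86.7 CPM in DMSO libraries. Both erianin libraries lay below both DMSO libraries, and erianin replicate 2 was the lowest. The means were 61.5 ± 14.7 CPM in erianin and 90.0 ± 4.75 CPM in DMSO (SD, n = 2 each).

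The log2 fold change of NORAD was -0.55 ± 0.16 (SE; edgeR, unadjusted p = 0.00929, adjusted p = 0.575). The 15 alternative fits reuse the same libraries, and with the groups apart, leaving out 1 library could hardly change the sign. NORAD stayed below 0 in all of them, from -0.83 without erianin replicate 1 to -0.28 with an offset for GC content and length. It was -0.32 without erianin replicate 2. Its adjusted p over these fits ran from 0.0025 to 0.999. NORAD has a single row in the table, so its count does not depend on how reads were divided between transcripts.

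NORAD carries many copies of the element that Pumilio proteins bind, TGTANATA, where N is any base. On the sense strand its GENCODE release 29 transcript holds 15, or 2.81 per kilobase, and the other members held at most 9, in KCNQ1OT1, whose annotated transcript is far longer. Among 1889 transcripts of 4800 to 5900 bases, with NORAD among them, 43.2% hold any and 3, counting NORAD itself, hold at least 15. As examples 4 of the sites that follow the bases ctg are printed, and sites 1 and 12, which also follow them, are left out. The element is in capitals, with positions on GRCh38 chromosome 20 and the minus strand.
NORAD site 2, 36049806 to 36049829: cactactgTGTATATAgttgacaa
NORAD site 4, 36049504 to 36049527: cttatctgTGTATATAgtgtacat
NORAD site 11, 36047974 to 36047997: ccctactgTGTATATAgcggacaa
NORAD site 14, 36047353 to 36047376: tgctactgTGTATATAatggaaaa

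Genes of proteins that bind NORAD were set beside it. PUM2, a Pumilio protein, RBMX and KHDRBS1, both nuclear RNA-binding proteins, had log2 fold changes of -0.40, -0.22 and -0.24, and none of these 3 passed at an adjusted p of 0.05. PUM2 had 14.3 and 11.8 CPM in erianin libraries and 18.4 and 16.2 CPM in DMSO libraries, without overlap (log2 fold change -0.40 ± 0.17 SE; edgeR, unadjusted p = 0.0437, adjusted p = 0.575).

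MALAT1 and NEAT1 lie close together on chromosome 11. MALAT1 (65497688 to 65506516, plus strand) had 12.6 and 11.2 CPM in erianin libraries and 10.4 and 9.52 CPM in DMSO libraries. Both erianin libraries were above both DMSO libraries, by a log2 fold change of 0.26 ± 0.17 (SE; edgeR, adjusted p = 0.598). The value was above 0 in all 15 alternative fits, from 0.09 to 0.60. These fits reuse the same libraries, and the separation largely fixed the sign of those without 1 library.

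NEAT1 (65422774 to 65445540, plus strand) had 14.4 and 14.8 CPM in erianin libraries and 15.6 and 16.4 CPM in DMSO libraries. Both erianin libraries were below both DMSO libraries, by a log2 fold change of -0.13 ± 0.15 (SE; edgeR, adjusted p = 0.753), and with the GC and length offset the value was 0.22. MALAT1 and NEAT1 thus separated the groups in opposite directions, each by less than 2 standard errors.

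The long form of NEAT1 builds paraspeckles, and a short form shares its first part. NEAT1 has 4 rows in the table, whose lengths, worked out from count and FPKM, are close to annotated transcripts of 22743, 3441, 3300 and 1053 bases. The row of the long form had 917 and 825 counts in erianin libraries and 947 and 754 counts in DMSO libraries. The 3 shorter rows had 0 counts in both erianin libraries; in DMSO libraries the row of 3441 bases had 18 and 150, that of 3300 bases 42 and 121, and that of 1053 bases 23 and 0.

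The long form took 100% of NEAT1 counts in both erianin libraries and 91.9% and 73.6% in DMSO libraries. Because FPKM divides by length, the short rows weigh more there: NEAT1 had 0.55 and 0.51 FPKM in erianin libraries and 1.09 and 1.61 FPKM in DMSO libraries, a difference of -0.61 on the log2(FPKM + 1) scale (limma, adjusted p = 0.664). Counts of overlapping transcripts were apportioned by the authors' software, and the division between forms was not tested.

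**Figure D3:**
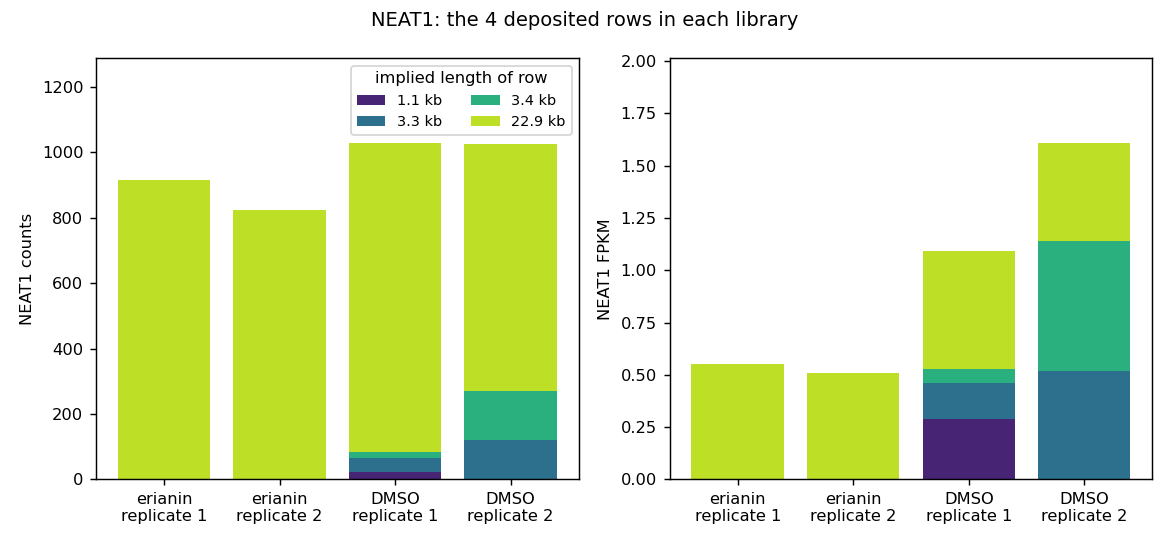
Counts (left) and FPKM (right) of the 4 NEAT1 rows, stacked for each library, with the length implied by count and FPKM in the legend. The shorter rows are present in DMSO libraries and at 0 in erianin libraries, so the groups lie closer in counts than in FPKM.

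Both RNAs are known to be cut at their ends by RNase P and to be protected by a triple helix of an A-rich end and U-rich stretches. The sequences are printed to show this shared end, from GENCODE release 29 transcripts on GRCh38 chromosome 11, plus strand, with U written as T. Capitals mark the 3 runs of at least 8 bases that the 95-base windows share, the U-rich TTTCTTTT, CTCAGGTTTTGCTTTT, which ends in a U-rich stretch, and the A-rich AAAAAGCAAAA, on the sense strand only. The A-rich run was found in the last 400 bases of 0.147% of 44205 genes' longest transcripts. In the annotated transcripts it ended at the last base of NEAT1 and 353 bases before the last base of MALAT1.
MALAT1, 65506022 to 65506116: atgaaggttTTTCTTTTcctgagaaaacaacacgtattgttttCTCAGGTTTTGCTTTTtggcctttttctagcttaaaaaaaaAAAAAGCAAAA
NEAT1, 65445446 to 65445540: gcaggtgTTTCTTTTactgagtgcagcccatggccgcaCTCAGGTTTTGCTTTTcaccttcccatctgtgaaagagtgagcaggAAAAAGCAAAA

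Of 12 paraspeckle protein genes, 0 passed at an adjusted p of 0.05, with 2 log2 fold changes above 0, 10 below and a median of -0.16. Both erianin libraries lay below both DMSO libraries in 7 of them (58.3%), beside 24.4% of all genes. GC content ran from 37.4% in NUDT21 to 59.4% in RBM14, mostly under the median of 51.6% over 7996 genes described below. Fold changes followed GC content across the whole table, and its part in this share was not tested. TAF15, an RNA-binding protein, had 108 and 72.2 CPM in erianin libraries and 123 and 127 CPM in DMSO libraries (log2 fold change -0.47 ± 0.17 SE; edgeR, unadjusted p = 0.0275, adjusted p = 0.575). NONO and SFPQ, the core proteins of paraspeckles, had log2 fold changes of -0.03 and -0.23.

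TUG1, OIP5-AS1 and HCG18 were likewise picked with their values in view. TUG1 (chromosome 22, 30969245 to 30979395, plus strand) had 19.1 and 12.2 CPM in erianin libraries and 22.7 and 18.8 CPM in DMSO libraries. The groups overlapped, since erianin replicate 1 was above DMSO replicate 2. The log2 fold change was -0.41 ± 0.23 (SE; edgeR, adjusted p = 0.578), with -0.78 without erianin replicate 1 (edgeR, adjusted p = 0.0148) and -0.12 without erianin replicate 2.

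OIP5-AS1, known as cyrano in fish, had 15.3 and 12.8 CPM in erianin libraries and 15.97 and 15.4 CPM in DMSO libraries, and HCG18 had 13.2 and 12.5 CPM in erianin libraries and 16.9 and 14.2 CPM in DMSO libraries. Both were lower in both erianin libraries, by log2 fold changes of -0.16 ± 0.16 and -0.28 ± 0.16 (SE; edgeR, adjusted p = 0.732 and 0.587). PVT1, which lies beside MYC, and MIR22HG, host of miR-22, overlapped between groups, with log2 fold changes of -0.07 and -0.10.

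CYTOR had 21.6 and 27.7 CPM in erianin libraries and 25.4 and 22.9 CPM in DMSO libraries, which overlapped (log2 fold change 0.03 ± 0.17 SE; edgeR, adjusted p = 0.962). MIR4435-2HG is a near copy of it, and reads of both may be hard to tell apart. That gene had 38.03 and 37.5 CPM in erianin libraries and 47.4 and 41.9 CPM in DMSO libraries, and the sum of both genes had a log2 fold change of -0.14 (edgeR, adjusted p = 0.664).

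**Figure D4:**
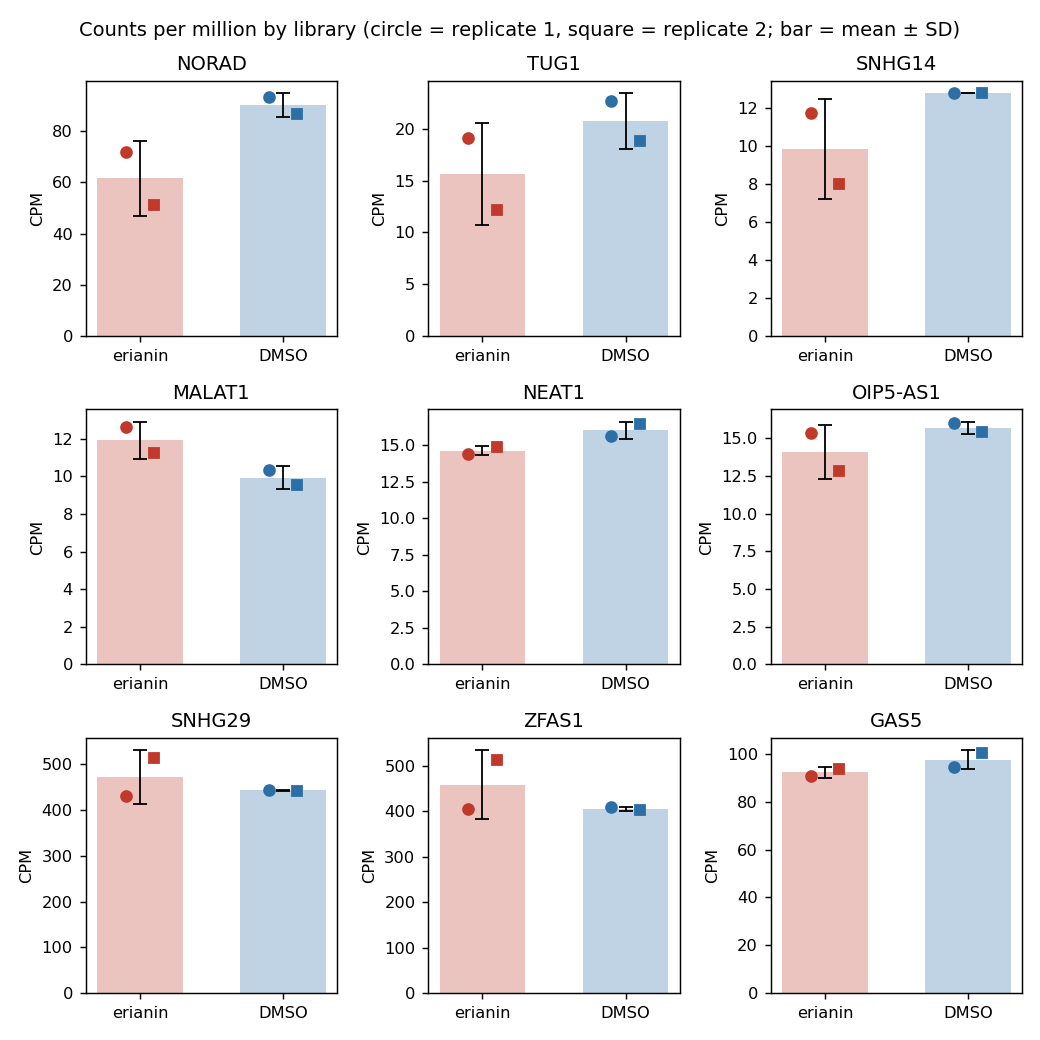
CPM of 9 genes in each library, erianin left of DMSO, with bars for the mean and whiskers for the SD (n = 2 each). In NORAD, TUG1, SNHG14 and OIP5-AS1 erianin replicate 2 is the lowest library, and in SNHG29 and ZFAS1 it is the highest.

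H19 and KCNQ1OT1 are imprinted RNAs of chromosome 11. H19 (1995176 to 2001470, minus strand), which holds miR-675, had 3.93 and 3.56 CPM in erianin libraries and 2.85 and 2.87 CPM in DMSO libraries. The groups did not overlap, with erianin higher by a log2 fold change of 0.39 ± 0.25 (SE; edgeR, adjusted p = 0.598), the highest value among the members with at least 1 CPM.

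IGF2, the growth factor gene beside H19 that is expressed from the other parental allele in many tissues, had 3.67 and 3.53 CPM in erianin libraries and 7.05 and 4.58 CPM in DMSO libraries. In IGF2 the groups were also apart, with a log2 fold change of -0.69 ± 0.27 (SE; edgeR, unadjusted p = 0.0325, adjusted p = 0.575). KCNQ1OT1 had 33 and 20 counts in erianin libraries and 34 and 41 counts in DMSO libraries, over an annotated length of 91667 bases.

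Related genes were set beside these RNAs in 7 lists, which include protein-coding snoRNA hosts and neighbours of members. Of 68 such genes tested, 0 passed at an adjusted p of 0.05 and 10 (14.7%) had an unadjusted p under 0.05, beside 8.1% of all genes; 22 had a log2 fold change above 0 and 46 below. Both erianin libraries lay below both DMSO libraries in 31 (45.6%), beside 24.4% of all genes, and the part of GC content was not tested. Without erianin replicate 1, 26 of them passed, beside 17.5% of all genes tested in that fit, and among the 26 were NOP58, ZNHIT6, EIF4G2, TAF15 and PUM2.

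The 8 proteins of mature snoRNA particles were evenly divided, 4 above 0 and 4 below. FBL, the ribose methyltransferase of C/D box particles, had a log2 fold change of 0.09, and DKC1, the pseudouridine synthase of H/ACA particles, of -0.24. NOP58, a core C/D box protein, had 9.86 and 7.09 CPM in erianin libraries and 12.8 and 10.7 CPM in DMSO libraries, without overlap (log2 fold change -0.47 ± 0.21 SE; edgeR, unadjusted p = 0.0559, adjusted p = 0.575).

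Of 10 assembly factors, 6 were above 0 and 4 below. ZNHIT6, an assembly factor of C/D box particles, had 7.30 and 4.35 CPM in erianin libraries and 9.20 and 9.70 CPM in DMSO libraries, without overlap (log2 fold change -0.70 ± 0.26 SE; edgeR, unadjusted p = 0.0277, adjusted p = 0.575). RUVBL2, an ATPase of the assembly complex, went the other way, with a log2 fold change of 0.25.

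Of 15 protein-coding snoRNA hosts, 5 were above 0 and 10 below, with a median of -0.10. EIF4G2, a translation initiation factor whose introns hold snoRNAs, had 176 and 136 CPM in erianin libraries and 209 and 207 CPM in DMSO libraries, without overlap (log2 fold change -0.41 ± 0.13 SE; edgeR, unadjusted p = 0.0122, adjusted p = 0.575). RACK1 and EEF2, a protein of the small ribosomal subunit and a translation elongation factor, were above 0, at 0.15 and 0.14.

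Of 10 genes of nonsense-mediated decay, the pathway that destroys many spliced host transcripts, 3 were above 0 and 7 below, with a median of -0.17. SMG9 had 109 and 111 CPM in erianin libraries and 93.9 and 97.0 CPM in DMSO libraries, without overlap (log2 fold change 0.21 ± 0.09 SE; edgeR, unadjusted p = 0.0588, adjusted p = 0.575). UPF1, the helicase at the centre of the pathway, had a log2 fold change of 0.02. Most of the list went the other way from SMG9. Both erianin libraries lay below both DMSO libraries in 6 of the 10 genes, beside 24.4% of all genes. They lay above both only in SMG9. UPF3B and UPF2, among the 6, had log2 fold changes of -0.56 and -0.48. The part of GC content in these values was not tested. Of 12 neighbours of members, 3 were above 0 and 9 below; MYC, beside PVT1, was at 0.03.

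Fold changes followed the GC content of the transcript across the whole table. Over 7996 genes with a mean of at least 8 CPM, Spearman's rho between GC content and log2 fold change was 0.663, and it was 0.498 for erianin replicate 1 and 0.653 for erianin replicate 2, each against the mean of the DMSO libraries. Between DMSO replicates 1 and 2 it was -0.267. Over 34 members with at least 1 CPM it was 0.387. Genes share libraries here, so these are descriptions.

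Among genes of 38% to 46% GC the median log2 fold change was -0.13 over 15 members with at least 1 CPM. It was -0.23 over the 2047 genes of the whole table with at least 8 CPM. Among genes of 54% to 67% GC, with the same CPM limits, the median was 0.04 over 6 members and 0.15 over 3178 genes of the whole table. The GC content was 41.6% in NORAD, 43.1% in TUG1 and 44.9% in SNHG14, 3 members whose lowest library was erianin replicate 2. With an offset fitted to GC content and length, NORAD had a log2 fold change of -0.28, TUG1 -0.13 and SNHG14 -0.10, while MALAT1, at 40.3% GC, had 0.60. The offset was fitted to each library without regard to group. It would therefore also take out any change after erianin that follows GC content or length.

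**Figure D5:**
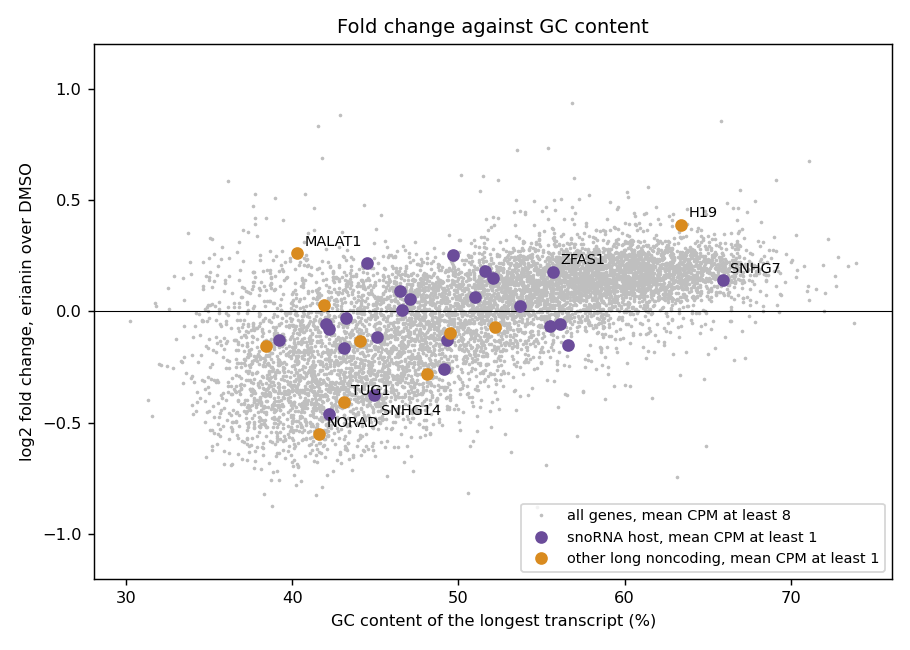
log2 fold change of erianin over DMSO against the GC content of the longest transcript, for all genes with a mean of at least 8 CPM (grey) and the members with at least 1 CPM (purple, snoRNA hosts; orange, others); 13 grey genes more than 1.2 from 0 lie outside the axis. The grey cloud climbs from left to right, and MALAT1 lies near its upper edge at low GC.

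Several members share their ground with other genes, and the strand used in counting is not given in the sources used here. SNHG14 runs antisense through UBE3A, which had 13.8 and 10.6 CPM in erianin libraries and 17.3 and 17.6 CPM in DMSO libraries (log2 fold change -0.52 ± 0.17 SE; edgeR, adjusted p = 0.575). ZFAS1 is antisense to ZNFX1, which had a log2 fold change of -0.19 where ZFAS1 had 0.18. SNHG4 overlaps on the same strand with a MATR3 entry (ENSG00000280987) that had 30 and 0 counts in erianin libraries and 1835 and 761 counts in DMSO libraries, while the other MATR3 entry had a log2 fold change of 0.02. SNHG4, host of SNORA74A, had 12.8 and 12.9 CPM in erianin libraries and 12.0 and 14.3 CPM in DMSO libraries, which overlapped.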

How the data were processed

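RNA sequencing of total RNA was analysed in 4 libraries, grouped by their titles. Per the submitters' processing notes the tools included fastp, STAR, StringTie 2.2.1 and featureCounts 2.0.1, with the build GRCh38; the annotation, strand setting and treatment of multiply mapped reads are unknown here. The deposited table holds 107429 rows for 25798 gene IDs, 14076 of them with several rows whose values look apportioned between transcripts. The authors thus deposited estimated counts, in whole numbers and without normalisation, where plain counts per gene had been assumed in planning. The deposited FPKM values, with the same rows, are per the file headers FPKM per library. Rows were summed per gene ID, 725 rows for the 42 members.

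The main test was edgeR 4.0.16 in R 4.3.3 (TMM factors, filterByExpr with a minimum count of 10, quasi-likelihood F test, group only, 2 residual degrees of freedom, Benjamini-Hochberg adjustment over 17090 genes). CPM values use TMM-adjusted library sizes. Dividing a log2 fold change by the square root of F gave its standard error. FPKM was tested with limma 3.58.1 on log2(FPKM + 1), which understates the change of low genes. DESeq2 1.42.0 was an alternative, as were other scalings, filters, a natural spline offset of 5 degrees of freedom for GC content and length, a replicate block and leaving out each library. The edgeR step was also run on simulated data with changes larger than those of nearly all members, and the outcome is not reported here. Coordinates are 1-based, taken from GENCODE release 29 (GRCh38), where 42 of 42 members were found; the RefSeq promoter table (GRCh38.p14) held 35. The gene name table used for symbols held 25779 of the IDs.

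Full statistics are given for the 10 tested members with the highest mean FPKM and those with an unadjusted p under 0.05, and from each list of related genes for the member with the smallest p. Members and lists were chosen with earlier results of these data known, and other named genes after their values had been seen. Some genes of the lists are counted but not reported by name here.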

Additional observations from a re-analysis of the deposited data

How the results depend on the processing

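Over 15 alternatives, 132 of 166 values of the 11 members with full statistics kept their direction and side of the threshold, 29 changed sign and 5 newly passed. With 2 libraries a group and 2 residual degrees of freedom, small changes lie below what the test can call.

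All genes past the threshold (7) became 2 with library totals alone, 24 with DESeq2's Wald test, 0 with limma-voom, 2 with limma on log2(FPKM + 1), 334 (1.95%) with the replicate block, 15 with the replicate block and the GC and length offset, and 24 to 3166 without 1 library. Members past it (0) became 1, NORAD (-0.57, adjusted p = 0.0025), with the replicate block and 0 to 6 without 1 library, the 6 being NORAD, SNHG14, SNHG29, SNHG7, TUG1 and ZFAS1 without erianin replicate 1; related genes (0) became 4 (EIF4G2, HSPA9, NCL and TAF15) with the block and 0 to 26 without 1 library. DESeq2 called 0 members and limma-voom 0. Deviations of same-numbered libraries from their group means correlated at 0.05 over genes. With 2 libraries a group, this cannot decide whether the replicates were paired. The cause of these differences was not tested.

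The hosts' median (-0.04) was -0.026 with DESeq2 size factors, -0.142 with library totals (-0.111 over all genes), -0.022 with upper-quartile factors, -0.062 with limma-voom, -0.09 with FPKM, 0.014 with the GC and length offset, -0.005 with offset and block, and -0.042 to -0.019 without 1 library. The other RNAs' median (-0.13) was -0.231 with library totals, -0.088 with FPKM, -0.079 with the offset, -0.071 with offset and block, and -0.274 to -0.117 without 1 library. Members above 0 (16 of 39) numbered 10 with library totals and 20 of 39 with the offset.

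Sign changes with library totals were SNHG29 (-0.012), SNHG32 (-0.036), DANCR (-0.078) and CYTOR (-0.077). With FPKM they were SNHG29 (-0.017), SNHG32 (-0.042), DANCR (-0.156) and SNHG8 (0.22). With the offset, and with offset and block, they were ZFAS1 (-0.013 in both), GAS5 (0.085 and 0.084), SNHG6 (0.054 and 0.053), SNHG7 (-0.062 in both), SNHG32 (-0.02 and -0.021), DANCR (-0.132 and -0.133) and SNHG16 (0.056 in both). Summed with MIR4435-2HG, CYTOR was -0.14. Without 1 library, SNHG29 ran from -0.039 to 0.204, ZFAS1 from -0.001 to 0.329, SNHG7 from -0.012 to 0.269, DANCR from -0.042 to 0.078 and CYTOR from -0.162 to 0.191.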
